A study of Homo sapiens with 16 samples.

Results

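The subject is a block of human chromosome 7 on both sides of the centromere, with the part around EGFR left out. Its members are the TOP2B peak intervals on chromosome 7 whose midpoint lies from 25 to below 54.5 Mb or from 56 to below 75 Mb of GRCh37. The 4 TOP2B lists of the series hold 44922 intervals, and 2544 of them are members. Untreated wild type contributed 824 of its 15281 intervals, untreated knockout 867 of 12493, treated wild type 70 of 9655 and treated knockout 783 of 7493. The members were chosen by position in the lists, and the block was picked with the regional counts of these same lists known. Its shares and their ratios between lists are therefore a description and carry no test.

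The cells were PC9, an established human lung adenocarcinoma line whose growth depends on mutant EGFR. They were either wild type or knocked out for METTL7A, a methyltransferase-like protein, and either untreated or grown with osimertinib, an inhibitor of mutant EGFR, at doses that started at 100 nM and were increased over 6 to 8 weeks. All groups shared the PC9 background and a medium with fetal bovine serum. The labels do not say whether the knockout was 1 clone, or whether replicates came from separate cultures, and the genotypes were taken from the labels without a check in the data. Each of the 4 conditions had 2 TOP2B libraries made by CUT&RUN, a method that tethers a nuclease to an antibody and releases the DNA fragments around the bound protein. The authors deposited 1 list of intersected peaks for each condition. No spread between replicates can be had from 1 list, so the 95% intervals printed with shares and ratios stand for counting error alone, and differences between conditions are given without a test. They treat peak intervals as independent of each other, although 1 called peak can give several of them.

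TOP2B is the beta form of DNA topoisomerase II. It cuts both strands of a DNA duplex, passes another duplex through the break and reseals it. The enzyme relieves the torsion that builds up where genes are transcribed, and it is known to sit near the anchors of chromatin loops together with CTCF and cohesin. The chromosome 7 centromere is flanked by repeats and segmental duplications. EGFR lies on the short arm not far from it, and gain of this chromosome is frequent in lung adenocarcinoma. Intervals were not assigned to genes, since gene models on GRCh37 were not used here. Positions are counted from 1.

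Few members lay next to the centromere itself. No list held an interval from 57712401 to 61513150, the stretch that contains the centromere, and none from 61971351 to 64323000 on its long-arm side. Whether reads could be placed in these stretches was not examined, so their emptiness is not read as absence of TOP2B. The window from 56 to 62 Mb held 66 of the 824 members in untreated and 20 of 70 in treated wild type, and 85 of 867 in untreated and 67 of 783 in treated knockout. Most members lay farther out, so "pericentromeric" describes the span of the block better than the place of its intervals.

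The block made up 5.39% of the untreated wild-type list (5.04 to 5.76) and 6.94% of the untreated knockout list (6.5 to 7.4). Under osimertinib its share was 0.725% in wild type (0.566 to 0.915) and 10.4% with METTL7A knocked out (9.77 to 11.2). The treated wild-type list stood apart from the other 3, which lay within 2-fold of each other. As a share of the intervals on chromosome 7, the members were 50.4% in untreated and 19.1% in treated wild type, and 63.8% in untreated and 67.8% in treated knockout. Over the 48.5 Mb of the block this came to 17 intervals per Mb in untreated and 1.44 in treated wild type, and 17.9 in untreated and 16.1 in treated knockout.

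**Figure D1:**
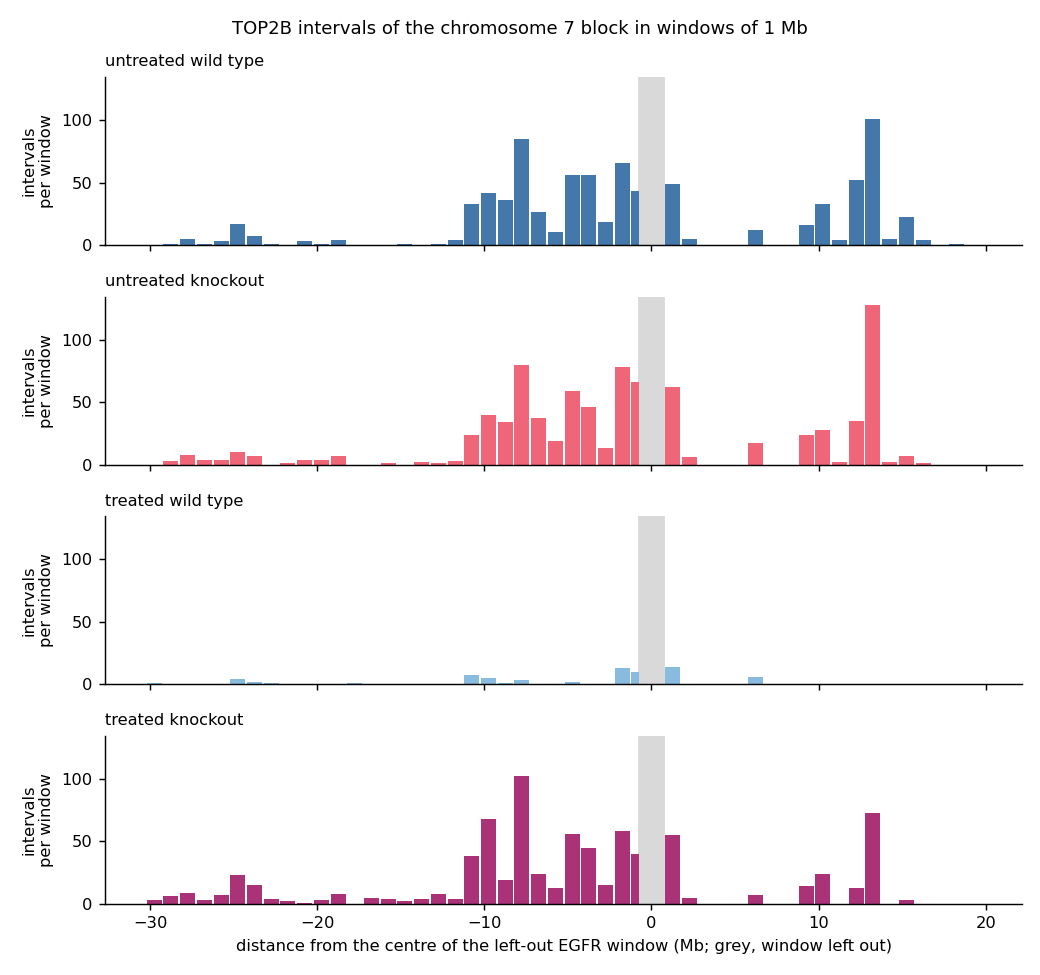
Number of TOP2B intervals of the block in each window of 1 Mb, for the 4 lists, against the distance from the centre of the EGFR window that was left out (grey band, negative toward the end of the short arm), as bars without error. Untreated wild type, untreated knockout and treated knockout show the same 2 groups of tall windows, and no window of treated wild type exceeds 14 intervals.

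Members were gathered in a small set of dense stretches. A run was taken as at least 3 neighbouring bins of 100 kb with at least 5 intervals each, summed over the 4 lists, a definition chosen after the data had been seen. There were 13 such runs. They took up 11.1 of the 48.5 Mb of the block, 22.9% of its length, and held 86% of the members in untreated and 91.4% in treated wild type, and 84.3% in untreated and 82% in treated knockout. The pooled counts that defined the runs include these members, so a high share is built in.

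The longest run went from 53.3 to 56.4 Mb and crossed the EGFR window. Its parts inside the block held 154 members in untreated and 37 in treated wild type, and 199 in untreated and 146 in treated knockout. Its edges, examined once the run had been found, were steep in every list. In the 500 kb before 53.3 Mb there were 3, 3, 0 and 7 intervals in untreated wild type, untreated knockout, treated wild type and treated knockout, and in the 500 kb after it 43, 49, 8 and 35. At its far edge, the 500 kb before 56.4 Mb held 61, 68, 17 and 60 intervals in the same order, and the 500 kb after it 3, 6, 0 and 3. Counts thus changed several-fold across both edges in all 4 lists, on the side away from EGFR.

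On the long arm the main run lay from 67.7 to 69 Mb. It held 129 members in untreated wild type, and 151 and 82 in the untreated and treated knockout. Treated wild type had 0 there. This run also ended sharply: the 500 kb before 69 Mb held 51, 68 and 35 intervals in untreated wild type, untreated knockout and treated knockout, and the 500 kb after it 3, 1 and 0. Between the centromere and this run were 3 smaller runs. Treated wild type again had 0 intervals in those at 65.2 to 65.7 Mb and 67 to 67.3 Mb, and had 4 in the one at 61.7 to 62 Mb. On the short arm, the runs at 46.4 to 48.8 Mb and 50.2 to 51.8 Mb held 127 and 108 members in untreated and 3 and 2 in treated wild type, and 134 and 101 in untreated and 135 and 95 in treated knockout.

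The densest windows of 1 Mb were largely shared by 3 of the lists. The window at 68 to 69 Mb led in untreated wild type with 101 members and in untreated knockout with 128, and was the next densest in treated knockout with 73. The window at 47 to 48 Mb led in treated knockout with 102 and held 85 and 80 in the untreated wild type and knockout. The third densest was 53 to 54 Mb in both untreated lists, with 66 in wild type and 78 in knockout, and 45 to 46 Mb with 68 in treated knockout. In treated wild type the densest were 56 to 57 Mb with 14, 53 to 54 Mb with 13, and the part of the block at 54 to 54.5 Mb with 10. All 3 lie within 1.5 Mb of an edge of the EGFR window.

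Counts rose and fell together along the block in the lists other than treated wild type. Over the 42 windows with a member in at least 1 list, the wild-type and knockout lists of untreated cells had a Pearson's r of 0.961 (Spearman's rho 0.935). For treated against untreated cells, r was 0.89 in the knockout (rho 0.879) and 0.441 in wild type (rho 0.415). For knockout against wild type under osimertinib it was 0.533 (rho 0.495). These are descriptions across windows of single lists. Windows of a list share its libraries and depth, and 7 windows with no member in any list were not counted.

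For the comparisons the block was divided into 8 segments along the gaps in the profile, also after the data had been seen. They are segment 1 (25 to 44 Mb), segment 2 (44 to 53 Mb), segment 3 (53 to 54.5 Mb), segment 4 (56 to 58 Mb), segment 5 (61 to 62 Mb), segment 6 (64 to 67 Mb), segment 7 (67 to 69 Mb) and segment 8 (69 to 75 Mb). Segment 2 was the largest holder of members in 3 lists, with 362 in untreated wild type, 352 and 380 in the untreated and treated knockout. Of the treated wild-type members it held 18, and segment 3 held 23. By density, segments 3 and 7 were highest in untreated wild type with 72.7 and 76.5 intervals per Mb and in untreated knockout with 96 and 81.5. In treated knockout segment 3 was highest with 65.3 per Mb and segments 2 and 7 followed with 42.2 and 43. Segment 1 was sparse in every list, with 0.474 to 5.84 intervals per Mb.

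**Figure D2:**
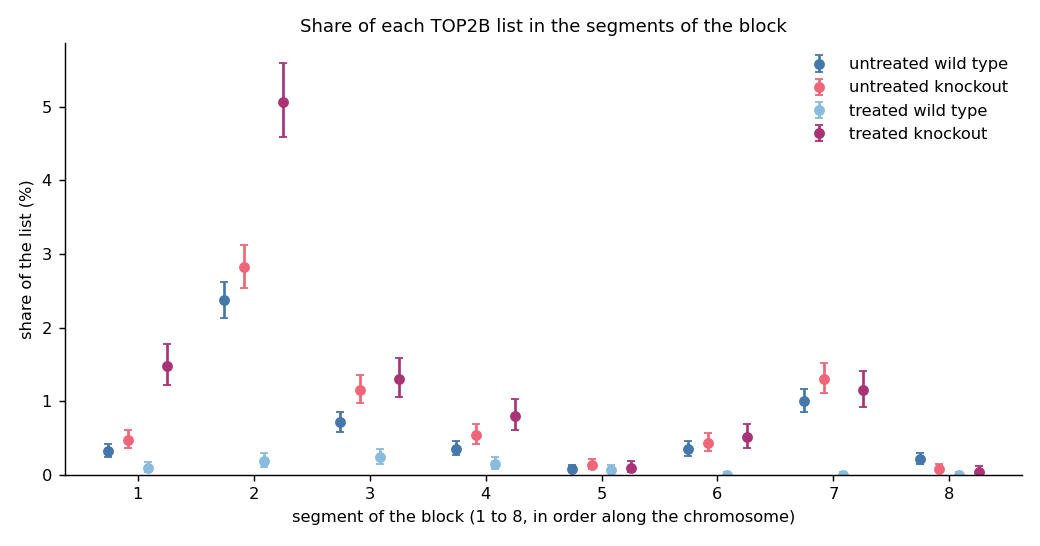
Share of each list (percent of its intervals, vertical axis) in segments 1 to 8 of the block, in order along the chromosome, with points for single lists and bars for exact 95% intervals of counting error. Treated wild type is lowest in every segment, with 0 intervals in segments 6 to 8, and treated knockout is highest in segment 2 at 5.07%.

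Setting untreated knockout beside untreated wild type asks what differs without METTL7A when no drug is given. The block held 824 wild-type and 867 knockout intervals, and its share was 1.29 times as large in the knockout (1.17 to 1.42). Across segments the ratio of shares was 1.47 in segment 1 (0.991 to 2.2), 1.19 in segment 2 (1.02 to 1.38), 1.62 in segment 3 (1.25 to 2.09) and 1.54 in segment 4 (1.06 to 2.24). It was 1.25 in segment 6 (0.837 to 1.86) and 1.3 in segment 7 (1.04 to 1.64). Segment 8 went the other way, with 32 wild-type and 10 knockout intervals and a ratio of 0.382 (0.168 to 0.797). The interval of the ratio included 1 in segments 1, 5 and 6. Segment 5 held 12 and 17 intervals.

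Windows of 1 Mb were examined where either list had at least 20 intervals, and a 2-fold ratio of shares was counted as a difference. Of the 15 such windows in the block, 0 were higher in the knockout and 1 was lower. Of 231 such windows on all chromosomes, 1.3% were higher and 13.4% lower. Since the block was picked from such counts, nothing is read from these percentages, here or in the other comparisons. The windows with the largest ratios were 54 to 54.5 Mb with 43 and 66 intervals (1.88, 1.26 to 2.82), 64 to 65 Mb with 16 and 24, and 48 to 49 Mb with 26 and 37 (1.74, 1.03 to 2.99). The smallest was at 70 to 71 Mb with 22 and 7 (0.389, 0.14 to 0.943). It turned to 1.99 when only intervals at or above the median maximum of their list were kept. With lists of equal length it turned to 2.33, both with 0.5 added to each count. These 2 values rest on fewer than 20 intervals in each list, below the limit used to examine a window. The next smallest were 67 to 68 Mb with 52 and 35 and 44 to 45 Mb with 33 and 24, whose intervals included 1.

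Treated against untreated wild type shows the block in cells that had grown with the drug. It went from 824 to 70 intervals, and its share in treated cells was 0.134 times that in untreated cells (0.104 to 0.172). Segments 6, 7 and 8 went from 53, 153 and 32 intervals to 0 each, and the ratio was at most 0.114, 0.0386 and 0.193 (exact bounds). Segment 2 went from 362 to 18 (0.0787, 0.0461 to 0.126). The ratio was larger in the segments beside the EGFR window: segment 3 went from 109 to 23 (0.334, 0.203 to 0.527) and segment 4 from 54 to 14 (0.41, 0.21 to 0.749). Segment 1 went from 49 to 9 (0.291, 0.126 to 0.598). Segment 5, next to the centromere, went from 12 to 6, with a ratio of 0.791 whose interval included 1 (0.244 to 2.28).

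All 14 windows examined in the block were lower with treatment by the 2-fold criterion. No window of the block held more than 14 intervals in treated wild type, below the limit of 20. Each window was thus examined only because of its untreated count, so a lower count with treatment was built in. With each called peak counted once, 11 of 13 were lower, and 56 to 57 Mb (0.679) and 44 to 45 Mb (0.553) were within 2-fold. Of 307 windows on all chromosomes, with every interval counted, 37.5% were lower and 29.6% higher. That share was not counted by called peaks. The windows of the block without a treated interval and with the most untreated ones were 68 to 69 Mb (101, ratio at most 0.0589), 51 to 52 Mb (56, at most 0.108) and 67 to 68 Mb (52, at most 0.116). The highest were 56 to 57 Mb with 49 and 14 (0.452, 0.231 to 0.832), 54 to 54.5 Mb with 43 and 10 (0.368, 0.165 to 0.744) and 44 to 45 Mb with 33 and 7 (0.336, 0.125 to 0.772). An empty window means that the list has no peak there, and the coverage in it was not measured here.

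Treated wild-type members were most numerous close to the EGFR window. The counts by distance do not say whether they are the same intervals as without treatment. From 0.75 to 2.25 Mb from its centre there were 162 untreated and 37 treated intervals, or 22.8 treated per 100 untreated. From 2.25 to 5 Mb there were 127 and 2, or 1.57 per 100. From 5 to 10 Mb and from 10 to 20 Mb the numbers were 5.7 and 3.72 per 100. Beyond 20 Mb they were 38 and 8, 21.1 per 100. The order was thus not a steady decline with distance. In the knockout the same classes gave 74.4, 99.1, 95.1, 80.7 and 178 treated intervals per 100 untreated.

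In the knockout, the same comparison went from 867 to 783 intervals in the block. The treated list was shorter as a whole, and the share went from 6.94 to 10.4%, a ratio of 1.51 (1.37 to 1.66). The ratio was largest on the short arm away from EGFR. Segment 1 went from 59 to 111 intervals (ratio of shares 3.14, 2.27 to 4.38) and segment 2 from 352 to 380 (1.8, 1.55 to 2.09). Counted as called peaks, segment 1 went from 59 to 98 and segment 2 from 348 to 302. The whole lists held 12284 called peaks without and 6023 with treatment. Segment 3 went from 144 to 98 (1.13, 0.869 to 1.48), and segment 4 from 68 to 60 (1.47, 1.02 to 2.11). On the long arm the ratio was 0.687 in segment 5 (17 and 7 intervals, 0.241 to 1.74), 1.17 in segment 6 (0.754 to 1.81), 0.88 in segment 7 (0.669 to 1.15) and 0.5 in segment 8 (10 and 3 intervals, 0.0885 to 1.94). All 4 intervals included 1. The members from 61 to 75 Mb were 28.1% of the block in untreated knockout and 17.1% (14.5 to 19.9) in treated knockout. In untreated wild type they were 30.3% (27.2 to 33.6).

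Of 15 windows examined in the block, 4 were higher with treatment in the knockout by the same criterion and 0 were lower. Of 158 windows on all chromosomes, 3.16% were higher and 10.1% lower. The highest ratios were at 30 to 31 Mb with 10 and 23 intervals (3.83, 1.76 to 9.03), 45 to 46 Mb with 40 and 68 (2.83, 1.89 to 4.3) and 44 to 45 Mb with 24 and 38 (2.64, 1.54 to 4.6). The lowest were 67 to 68 Mb with 35 and 13 intervals (0.619, 0.301 to 1.2), 46 to 47 Mb with 34 and 19, and 68 to 69 Mb with 128 and 73 (0.951, 0.703 to 1.28). The interval of the ratio included 1 in all 3. When plain counts were compared in place of shares, 1 of the 15 windows was higher and 1 was lower.

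Under osimertinib, the block held 70 wild-type and 783 knockout intervals, with a ratio of shares of 14.4 (11.3 to 18.7). In segment 2 the counts were 18 and 380 (27.2, 17 to 46.4) and in segment 1 they were 9 and 111 (15.9, 8.08 to 35.7). Beside the EGFR window the ratios were lower, 5.49 in segment 3 (3.46 to 9.06) and 5.52 in segment 4 (3.05 to 10.7). Segments 6 and 7 held 0 wild-type and 38 and 86 knockout intervals, with lower bounds of 12.6 and 29.4. Segment 5 held 6 and 7 intervals (1.5, 0.433 to 5.41).

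All 12 windows examined in the block were higher in the treated knockout by the 2-fold criterion. Treated wild type held at most 14 intervals in a window, so each window passed the limit of 20 only through the knockout list. A higher count in the knockout was therefore built in. Of 212 windows on all chromosomes, 33% were higher and 49.5% lower. The largest ratios were at 68 to 69 Mb with 0 and 73 intervals (lower bound 24.9), 51 to 52 Mb with 0 and 45 (15.1), and 65 to 66 Mb and 48 to 49 Mb, each with 0 and 24 (7.76). The smallest were at 56 to 57 Mb with 14 and 55 (5.06, 2.78 to 9.86), 54 to 54.5 Mb with 10 and 40 and 53 to 54 Mb with 13 and 58.

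Other dense regions of the lists are given beside the block as values, with no test of the difference. In wild type the ratio of shares, osimertinib over untreated, was 0.134 in the block, 0.836 in the EGFR window (161 and 85 intervals, 0.635 to 1.09), 0.513 in the rest of chromosome 7 and 0.266 on chromosome 20 from 40 Mb. It was 0.0577 on chromosome 1 from 110 to 120 Mb. The low share in treated wild type was thus met outside chromosome 7 as well. In the knockout the ratios were 1.51 in the block, 1.64 in the EGFR window (1.36 to 1.98), 0.924 in the rest of chromosome 7 (0.748 to 1.14), 1.05 on chromosome 20 from 40 Mb (0.976 to 1.13) and 1.61 on chromosome 1 from 110 to 120 Mb. For knockout over wild type under osimertinib, the ratios in the same order of regions were 14.4, 3.47, 0.873, 4.85 and 39.1. For knockout over wild type without treatment they were 1.29, 1.77, 0.485, 1.23 and 1.41.

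**Figure D3:**
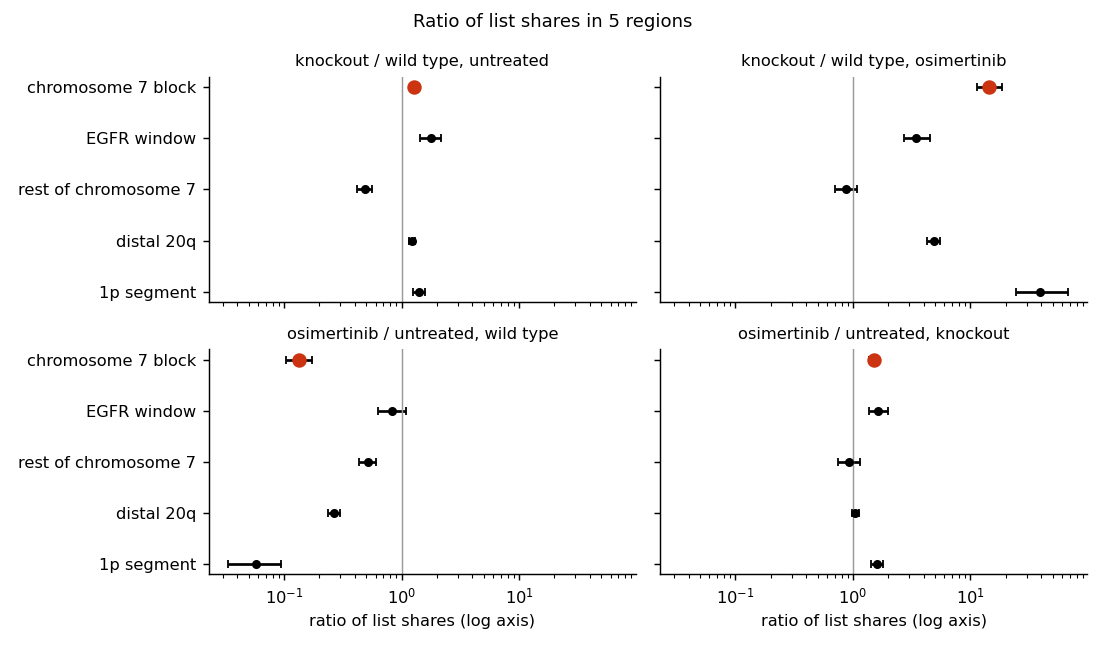
Ratio of list shares (log axis, with exact 95% intervals for counting error) in the chromosome 7 block (red) and in 4 other regions, for each of the 4 comparisons: the EGFR window (54.5 to 56 Mb), the rest of chromosome 7, distal 20q (from 40 Mb) and a 1p segment (110 to 120 Mb). The block lies at 0.134 for osimertinib in wild type and at 1.51 for osimertinib in the knockout.

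The edges of the rule beside EGFR cut through a dense stretch. In untreated wild type, the last member before 54.5 Mb was at 54493001 to 54497650 with a maximum of 1.17 times the list median, and the first interval after it was at 54501551 to 54503150 with 1.08 times. The 500 kb inside the edge held 43, 66, 10 and 40 members in untreated wild type, untreated knockout, treated wild type and treated knockout, and the 500 kb outside it 66, 80, 16 and 70 intervals. At the 56 Mb edge the inside held 46, 56, 14 and 52 and the outside 44, 58, 24 and 55. At 25 and 75 Mb the edges fell in sparse sequence, with 0 to 9 intervals in the Mb on either side.

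Member intervals had much the same width as other intervals of their list. The median width in the block was 2650 bp in untreated wild type (interquartile range 2000 to 3850), against 2600 bp elsewhere in that list. With treatment it was 1100 against 1200 bp. In the knockout it was 1650 bp both inside and outside the block without treatment, and 1150 bp both inside and outside with it. The median width of the whole block thus followed the list. Within the block it varied by segment. In untreated wild type it went from 2300 bp in segment 8 (32 intervals) to 4175 bp in segment 5 (12 intervals).

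The maximum of a called peak, the highest coverage in it, was used relative to the median of its own list, since no source used here gives the scaling of the coverage. The region of this maximum lay outside the member interval for 48.8% of the members in untreated and 68.6% in treated wild type, and for 10.4% in untreated and 51% in treated knockout, so a maximum given here describes the called peak and not always the interval printed beside it. Its median over members was 1 in untreated and 1 in treated wild type, and 1.2 in untreated and 1.13 in treated knockout, against 1 elsewhere in every list. Coverage moved in whole steps, and the list medians were 12, 5, 11 and 8 steps in untreated wild type, untreated knockout, treated wild type and treated knockout. The differences of 0.2 and 0.125 were therefore 1 step each. By segment, the median was highest in segment 4 in untreated wild type at 1.29 and lowest in segment 8 at 0.75.

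By the median distance, members stood closer to each other than the other intervals of their list, except in treated wild type, where they stood farther apart. The median distance from the end of a member to the start of the next was 6550 bp in untreated and 43100 in treated wild type, and 6575 in untreated and 8025 in treated knockout. Elsewhere in these lists it was 8350, 17000, 9075 and 11300 bp in that order. The share of distances under 10 kb was 60.6% in the block of untreated wild type, against 54% elsewhere. In treated wild type it was 23.2% in the block and 39.3% elsewhere. These distances include those between pieces of a split peak, in which a called peak gave several intervals. Such pieces made up 53.8% of the members in untreated and 30% in treated wild type, and 2.54% in untreated and 36% in treated knockout. Counted as called peaks, the block held 551, 856, 58 and 624 in untreated wild type, untreated knockout, treated wild type and treated knockout.

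A single called peak next to the centromere dwarfed all other members. It lay at 61968501 to 61970850 in untreated and 61968551 to 61970700 in treated wild type, and 61968401 to 61970650 in untreated and 61968551 to 61971350 in treated knockout. Its maximum was 240 times the list median in untreated and 181 times in treated wild type, and 220 times in untreated and 251 times in treated knockout. It had the highest maximum of the whole list in untreated wild type, untreated knockout and treated knockout, and the second highest of 6616 called peaks in treated wild type. The region of the maximum was 61969451 to 61969500 in both wild-type lists and 61969401 to 61969450 in both knockout lists. Its position was thus nearly the same in the 4 lists, and its height relative to the list median differed by less than 2-fold. Treated wild type held 6 intervals in segment 5, where this peak lies, and none farther out on the long arm of the block.

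This peak carried a sizeable part of the summed area, which is the signal of a called peak added up over its bases. It made up 6.89% of the summed area of the block in untreated and 40% in treated wild type, and 12.3% in untreated and 12.5% in treated knockout. Without it the block held 5.2% of the summed area of its list in untreated and 0.649% in treated wild type, and 6.7% in untreated and 10.3% in treated knockout, close to its shares of intervals. Whether the peak lies in a repeat or in sequence that attracts reads from elsewhere was not tested.

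The other members exceeded the median of their list only a few fold. In untreated wild type the next highest called peaks were at 56117151 to 56161750 (2 times the list median, in 3 intervals), and at 54477151 to 54479150 and 56298451 to 56314300 (both 1.92 times). In untreated knockout they were at 68325801 to 68330700 (2.6 times), and at 47073851 to 47074500 and 53640651 to 53643250 (both 2.4 times). In treated wild type they were at 54334251 to 54339050 (1.55 times) and 61551801 to 61552700 (1.45 times). In treated knockout they were at 54277601 to 54279500 (2.12 times), and at 47420101 to 47427450 and 50789001 to 50793300 (both 2 times). Of these 11 peaks, 6 lay in the run from 53.3 to 56.4 Mb.

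Overlap between lists was then examined interval by interval, with an overlap of at least 1 bp. Of the untreated wild-type members, 49.8% had a counterpart in untreated knockout (46.3 to 53.2), against 34.3% of the other intervals of that list. Of the untreated knockout members, 57.1% had one in untreated wild type (53.7 to 60.4), against 53.4% elsewhere. Between untreated and treated knockout it was 33.8% (30.6 to 37.1) against 22.6% elsewhere, and in the reverse direction 41.8% (38.3 to 45.3) against 43.9%. The EGFR window had higher shares than the block in each case. In the order above they were 81.4% and 85.4% for the untreated lists, and 60.9% and 79.5% for the knockout lists. Distances between neighbours were shorter in the block than elsewhere in these 3 lists, and their part in the shares was not tested.

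Treated wild type had 70 members against 824 without treatment, so the same overlaps are a small share of the untreated members and a large share of the treated ones. Of the 824 untreated wild-type members, 44 had a treated counterpart, 5.34% (3.91 to 7.1) against 15.4% elsewhere. Of the 70 treated wild-type members, 53 had an untreated counterpart, 75.7% (64 to 85.2) against 28.3% elsewhere. Of the 70, 38 had a counterpart in treated knockout, 54.3% (41.9 to 66.3) against 10.2% elsewhere. A counterpart in untreated knockout was found for 41, in all 3 other lists for 28 and in none for 12. These last counts were not made elsewhere, so nothing about the block is read from them. These numbers rest on the 1 bp criterion: with an overlap of 50% of both intervals, 14.3% of the treated wild-type members had a counterpart in untreated wild type and 24.3% in treated knockout. The 50% criterion was not counted elsewhere. Of the 783 treated knockout members, 38 had a counterpart in treated wild type, 4.85% (3.46 to 6.6) against 14.4% elsewhere. The EGFR window had higher shares than the block by the 1 bp criterion. There, 32.3% of untreated wild-type intervals had a treated counterpart, and 94.1% of treated ones had an untreated counterpart. Between the treated lists, the share there was 77.6% for wild type in knockout and 29.7% in reverse.

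**Figure D4:**
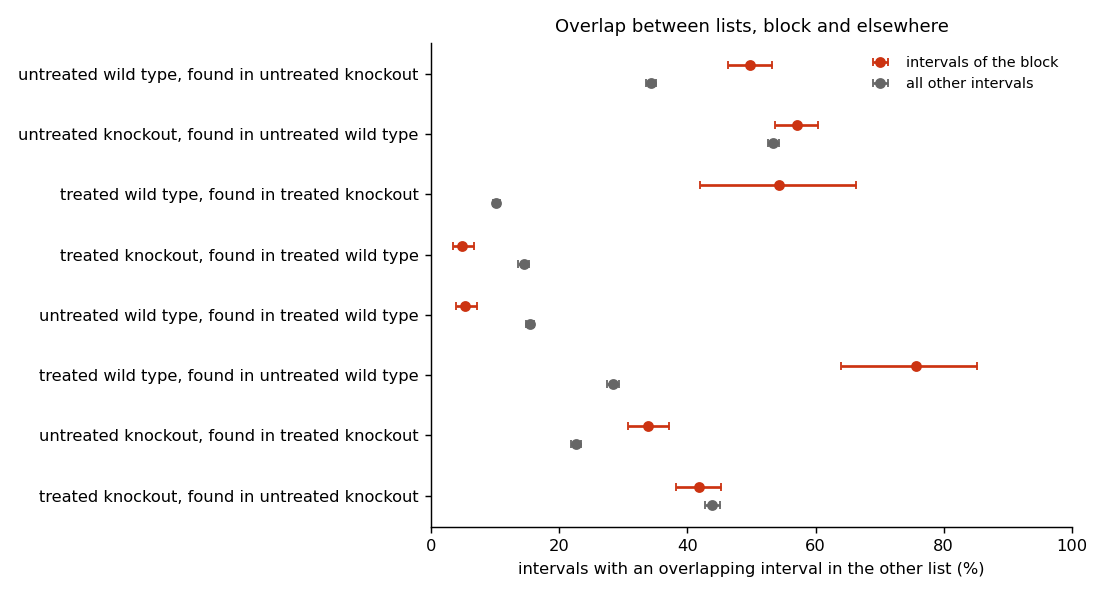
Share of intervals with an overlapping interval in another list (horizontal axis, percent, with exact 95% intervals for counting error), for the intervals of the block (red) and all other intervals of the same list (grey). The widest separation is for treated wild type found in untreated wild type, 75.7% in the block and 28.3% elsewhere. The EGFR window, counted among the other intervals, had 94.1% for this pair.

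Members with a counterpart were wider and slightly higher than those without in the untreated lists and in treated knockout. In untreated wild type the median width was 3150 bp for the 410 members with a counterpart in untreated knockout and 2350 bp for the 414 without, and the median maximum was 1.17 and 0.917 times the list median. In untreated knockout the widths were 1900 and 1500 bp for members with and without a counterpart in wild type. For the 44 untreated wild-type members that had a treated counterpart, the median width was 3375 bp, against 2650 bp for the other 780. In treated knockout the widths were 1350 and 1050 bp for members with and without a counterpart in untreated knockout. Their median maxima were 1.25 and 1 times the list median. In treated wild type the 38 members with a counterpart in treated knockout had a median width of 1050 bp, and the 32 without one 1150 bp. The members with one were thus not wider there, but their median maximum was higher, 1.09 against 0.909 times the list median. The part of width in the overlap was not tested.

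Merging the members of the 4 lists on overlap gave 1465 positions. Of these, 917 were held by 1 list only: 317 by untreated wild type, 300 by untreated knockout, 288 by treated knockout and 12 by treated wild type. There were 214 positions in all 3 lists other than treated wild type, and 31 of them, 14.5%, were also in treated wild type. These 31 were 50.8% of the 61 positions that treated wild type held. Positions were merged within the block only. No share over the whole lists stands beside these numbers, so they are not read as a trait of the block. The 31 positions were not spread over the block: 13 lay in segment 3, 11 in segment 4, 6 in segment 2 and 1 in segment 5. Segments 1, 6, 7 and 8 had 0, although segments 2 and 7 held 84 and 36 of the 183 positions that were in the 3 other lists but not in treated wild type.

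**Figure D5:**
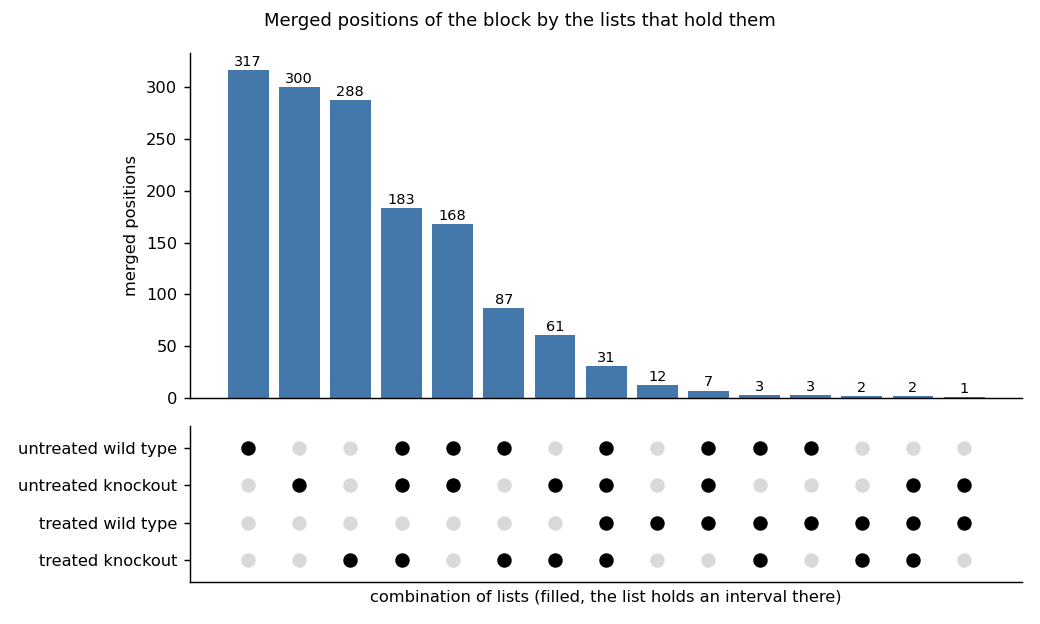
Merged positions of the block (bars, number of positions) for each combination of lists that hold them (filled circles). Positions in 1 list of the 3 fuller ones are the most frequent, 183 positions are in those 3 lists together, and 31 are in all 4.

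Of the positions in all 4 lists, the one at 61968401 to 61971350 was highest, with 181 to 251 times the list medians. The next was at 56130901 to 56162250, with maxima of 2 times the list median in untreated and 1.36 in treated wild type, and 1.6 in untreated and 1.75 in treated knockout. It was 1 interval in untreated and 3 in treated wild type, and 5 in untreated and 7 in treated knockout, so 1 broad interval faced several narrower ones. At 53970701 to 53977000 the maxima were 1.42 and 1.27 times the list median in untreated and treated wild type, and 1.8 and 1.25 times in untreated and treated knockout. At 54477151 to 54479150 they were 1.92 and 1.18 times in wild type and 1.4 and 1.38 times in the knockout, and at 56028851 to 56039500 they were 1.67 and 1.18 times and 1.8 and 1.5 times. The positions at 56055651 to 56065400, 56067101 to 56078050 and 56321651 to 56332200 had the same lowest maximum as these last ones, 1.18 times. Over the 31 positions the relative maximum of wild type was lower with treatment in 28 and higher in 3, on a scale that does not compare coverage between lists. The same count was not made for positions outside the block, so nothing about the block is read from it.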

How the data were processed

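TOP2B CUT&RUN of PC9 cells was used as 4 deposited lists of intersected peaks, 1 per condition, each from 2 replicate libraries. The 8 H2A libraries were not analysed here. The submitters' processing notes name SEACR, Bowtie2 2.4.2, bedtools 2.30, deepTools 3.5.1, SAMtools 1.16, FastQC and Trimmomatic, and GRCh37 as the build. No source used here states how SEACR was run or how duplicates were handled. Lists have no header. The authors' deposited area of a called peak is a score, the coverage summed over its bases, and the deposited maximum is a signal, the highest coverage. The scaling behind each list is not stated, so maxima were compared only with the median of their own list. The lowest maximum was 5, 2, 5 and 4 steps in untreated wild type, untreated knockout, treated wild type and treated knockout, so lists differ in what entered them. Library depth cannot be read from the lists; the labels' protocols name a nominal 20000000 paired-end reads per library.

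For shares, 95% intervals are exact (Clopper-Pearson), and for their ratios exact and conditional on the sum of both counts (scipy 1.17.1, Python 3.11.15). The intervals of ratios were checked on simulated lists whose members were drawn independently of each other. That check could not show the effect of split peaks. All 95% intervals count each piece of a split peak separately, and the share of such pieces differed between lists. Windows of 1 Mb with at least 20 intervals in either list were examined. The 2-fold criterion used counts with 0.5 added; printed ratios have nothing added unless stated. Named windows were the up to 3 with the largest and smallest ratio of each comparison and the 3 densest of each list; named intervals were the up to 3 highest called peaks of each list and the up to 5 highest positions in all 4, with ties kept. The members, segments and rules were chosen with earlier results of these data known. Gene lists and sequences of the intervals were not used, since sequence and gene models of that build were not used here.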

Additional observations from a re-analysis of the deposited data

Results flagged for a closer look

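The share of the block went in opposite directions under osimertinib in the 2 genotypes. In plain counts it went from 824 to 70 intervals in wild type and from 867 to 783 in the knockout, whose whole list went from 12493 to 7493. The ratio of treated to untreated share was 0.134 in wild type and 1.51 in the knockout. In segment 1 (25 to 44 Mb) it was 0.291 and 3.14, in segment 2 (44 to 53 Mb) 0.0787 and 1.8, and in segment 4 (56 to 58 Mb) 0.41 and 1.47, wild type first. Plain counts in segment 4 were lower with treatment in both, 54 and 14 in wild type and 68 and 60 in the knockout. Each genotype had 1 list per treatment, so the difference between genotypes was not tested.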

How the results depend on the processing

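Of 36 alternative values for the ratios of block shares, 30 stayed within the counting interval and none changed direction. The ratio of untreated knockout to wild type was 1.15 at or above the median maximum and 1.16 with lists of equal length. With inner edges (30 to 54 and 57 to 70 Mb) the ratio of treated knockout to treated wild type was 18.8 and that of treated to untreated wild type 0.102; by summed area, which includes the highest peak of the block, they were 10.8 and 0.193.

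Shares of the block in untreated wild type were 6.41% at or above the median maximum, 6.49% with equal lengths, 4.55% with inner edges, and 6.04% and 6.53% with chromosome 7 or chromosome 20 left out of the denominator. In untreated knockout they were 7.51% with equal lengths, 5.7% with inner edges, 7.79% and 8.7% without these chromosomes and 7.56% by summed area. In treated knockout they were 12.1% at or above the median, 8.77% with inner edges, 12.4% and 13% without these chromosomes and 11.6% by area. In treated wild type they were 0.466% with inner edges and 1.08% by area. Settings by area, and leaving out the treated wild-type list, were chosen after seeing the data.

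Windows at least 2-fold higher in untreated knockout numbered 2 by called peaks and 1 each at or above the median maximum, with equal lengths, with windows shifted by 0.5 Mb and with at least 10 intervals; windows lower numbered 0 at or above the median maximum, with equal lengths and with shifted windows. In treated wild type all 8 windows of 5 Mb were lower, as were 18 of 19 windows with at least 10 intervals. In the knockout under osimertinib 1 window was higher and 1 lower by number of intervals. The shares over all chromosomes were not counted for any of these settings, so these numbers are not read as a trait of the block. The window at 70 to 71 Mb in the untreated comparison turned to 1.99 at or above the median and 2.33 with equal lengths; the cause was not tested.

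Requiring 50% of both intervals, 19.1% of untreated wild-type members had a counterpart in untreated knockout and 18.1% in reverse, 24.3% of treated wild-type members one in treated knockout and 2.17% in reverse, 1.21% of untreated wild-type members one in treated wild type and 14.3% in reverse, and 16% of untreated knockout members one in treated knockout and 17.8% in reverse. Within 1 kb the shares were 58.3% and 67.4% for the untreated pair, 68.6% and 6.77% for the treated pair, and 42.3% and 51.9% in the knockout. With equal lengths they were 49.2% for untreated knockout in untreated wild type, and 39.3% and 32.4% in the knockout. None of these settings was counted for intervals outside the block. Without the treated wild-type list, 214 positions were held by all remaining lists.

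No paired analysis was possible because each condition has 1 list that joins its replicates, and leaving out a replicate was not possible either. Library depth is unknown here.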

Other observations

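Long stretches of the block had no interval in any list. Besides the stretch with the centromere (3.8 Mb) and the one on its long-arm side (2.35 Mb), no list had an interval from 71346051 to 73435200 (2.09 Mb), from 39785401 to 40737450 and from 32246701 to 33161800. The sequence and mappability of these stretches were not examined.

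Where intervals of 2 lists overlapped, the regions of the maximum of their called peaks were often kilobases apart. In the block the median distance was 2850 bp between untreated wild type and untreated knockout (498 pairs of called peaks, interquartile range 850 to 6719) and 1225 bp between untreated and treated knockout (304 pairs, 450 to 2406). The share of pairs within 500 bp was 17.7% and 26.3%, against 13.9% and 23.4% elsewhere in the lists. Between untreated and treated wild type it was 6.82% of 44 pairs in the block and 12.3% elsewhere, and between the treated lists 16.7% of 36 pairs and 16.5% elsewhere. The block was thus not on 1 side of the rest of the lists in all 4 comparisons.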
